A study of Sus scrofa with 3 samples.

Results

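Blood-cell miRNAs are mature miRNAs that red and white blood cells carry in large amounts, and their reads in a tissue library serve as a sign of the blood cells in that tissue. They were chosen by name alone, as the porcine mature names of miR-142, miR-144, miR-150, miR-155, miR-223 and miR-451, on any arm. The rule found 6 of the 276 porcine mature names, and 2002 names were listed in all. They were 2 miRNAs known from red cells, ssc-miR-451 and ssc-miR-144, and 4 known from white cells, ssc-miR-142-5p, ssc-miR-142-3p, ssc-miR-150 and ssc-miR-155-5p. All 6 were detected at 63, 98 and 161 d. No library listed ssc-miR-223. Its reads stood under the cattle name, bta-miR-223, which is described beside the 6 and not counted among them.

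Small RNA was sequenced from the psoas major, a deep muscle of the loin, in fattening pigs aged 63, 98 and 161 d. The 18 pigs were castrated hybrid males of Landrace, Large White and Duroc origin, for which no treatment was named, and were bled at slaughter. A library held equal amounts of RNA from 6 pigs of 1 age, without replicates, and the spread between pigs was not measured. The 63, 98 and 161 d libraries listed 1464699, 2418187 and 2242716 reads. Levels are given as reads per 1000000 named listed reads (RPM), with 95% Poisson intervals, and fold changes as the later over the earlier age, with 95% Clopper-Pearson intervals. All intervals cover counting error only, and no test between ages could be made. In such bulk libraries, fewer cells of a type and less miRNA per cell cannot be told apart.

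A miRNA is cut from a hairpin precursor that can release a product from its 5′ arm and from its 3′ arm, and bases 2 to 8 of the product, the seed, pair with target mRNAs. The genes of miR-144 and miR-451 lie side by side and are switched on together by the erythroid factor GATA1, and mature red cells keep both miRNAs after losing their nucleus. miR-451 is exceptional in being cut by Argonaute 2 instead of Dicer. miR-142 is made in nearly all blood cell lineages, miR-150 is abundant in resting lymphocytes, where it restrains the factor MYB, miR-155 is induced in activated lymphocytes and macrophages, and miR-223 is abundant in neutrophils and other myeloid cells.

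The representative reads, the 1 form that the pipeline printed for each arm, are shown because they identify the molecules counted. They are given 5′ to 3′ with the seed in capitals and T for U. For each of these names the read was identical in the 3 libraries.
ssc-miR-451: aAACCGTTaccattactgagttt
ssc-miR-144: tACAGTATagatgatgtact
ssc-miR-142-5p: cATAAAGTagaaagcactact
ssc-miR-142-3p: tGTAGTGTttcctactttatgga
ssc-miR-150: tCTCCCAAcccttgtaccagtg
ssc-miR-155-5p: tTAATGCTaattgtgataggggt
bta-miR-223: tGTCAGTTtgtcaaatacc

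The 6 porcine miRNAs shared no seed, and each seed was carried by 1 porcine name only. The reads of ssc-miR-451, ssc-miR-144, ssc-miR-142-3p and ssc-miR-155-5p were 1 base longer at the 3′ end than the known sequence, with 23 bases in ssc-miR-451 against 22 known and 20 in ssc-miR-144 against 19 known. The bta-miR-223 read ended 3 bases short of the known sequence, with 19 bases against 22.

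The ssc-mir-451 precursor is shown because its product does not stop at the loop. In the sequence, the capitals mark the representative read.
ssc-mir-451: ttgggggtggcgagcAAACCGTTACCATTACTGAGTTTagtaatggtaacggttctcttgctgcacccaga
The read covered bases 16 to 38 of the 71-base precursor and so ran across its middle at base 36. The ssc-miR-144 read, at bases 50 to 69 of a 100-base precursor, also crossed the middle, at 50.5, but by its first base only. It was listed on the 3′ arm, and the middle of a printed precursor need not be the loop. The hairpins of ssc-miR-144 and ssc-miR-451 lay on the same strand of the same genome sequence with 61 bases between them. The hairpin of ssc-miR-142 lay on that genome sequence too, 10972941 bases away. The genome build was not given in the sources used here, and no positions are therefore printed.

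Together the 6 miRNAs took 0.200% of the named reads at 63 d (0.192 to 0.207), with 0.311% in the 98 d library (0.304 to 0.318) and 0.216% in the 161 d library (0.210 to 0.222), all with Clopper-Pearson intervals. These shares came from 2919, 7529 and 4839 reads. The blood-cell miRNAs were thus most abundant in the 98 d library and were a small part of every library. Of the 6, 5 had their highest level at 98 d, and ssc-miR-150 had it at 63 d. A highest level at 98 d was common, since it was seen in 91 of the 169 porcine names with at least 50 counts in each library (53.8%).

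ssc-miR-451, the main miRNA of red cells, was the most abundant of the 6 in each library. It was read 1102 times at 63 d, 3304 times at 98 d and 2244 times at 161 d, or 754, 1366 and 1001 RPM. The intervals, 710 to 800, 1320 to 1414 and 960 to 1043 RPM, did not overlap, with 63 d lowest and 98 d highest. Its level put it at rank 56, 50 and 51 among the porcine names. From 63 to 98 d the level was 1.81-fold higher (1.69 to 1.94), and 79.1% of the porcine names tested in that pair had a smaller fold change. From 98 to 161 d the fold change was 0.732 (0.694 to 0.773), and from 63 to 161 d it was 1.33 (1.23 to 1.43).

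ssc-miR-144, made from the same locus as miR-451, was far less abundant. It had 81 reads at 63 d, 302 in the 98 d library and 154 at 161 d, or 55.4, 125 and 68.7 RPM. The 98 d library stood above the others, whose intervals overlapped (44.0 to 68.9 RPM at 63 d and 58.2 to 80.4 RPM at 161 d). The fold change of 2.25 from 63 to 98 d (1.76 to 2.92) was past the 2-fold limit, and from 98 to 161 d the fold change was 0.550 (0.450 to 0.670). The call at 98 d was lost under TMM scaling, where the fold change was 1.95, and under the median of ratios of DESeq2, where it was 1.85. Over the whole period the fold change was 1.24 (0.941 to 1.64), an interval that holds 1.

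**Figure D1:**
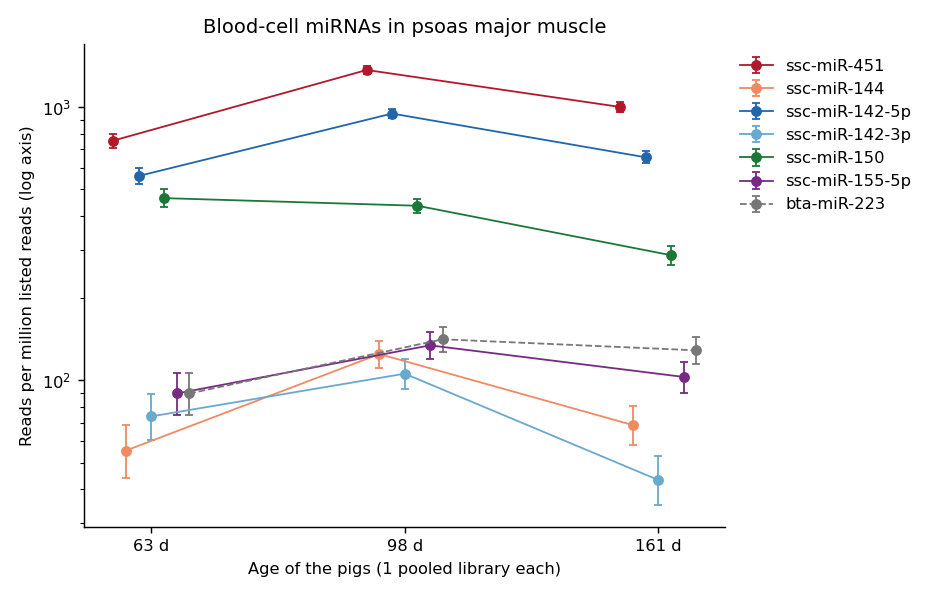
Levels of the 6 blood-cell miRNAs and of bta-miR-223 in the 3 libraries, in reads per 1000000 named listed reads on a log axis, with 95% Poisson intervals as bars and lines joining the same miRNA. ssc-miR-451 goes from 754 to 1366 and 1001 RPM with the highest point at 98 d, while ssc-miR-150 goes from 464 to 435 and 287 RPM.

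The 5p product of the miR-142 hairpin was the most abundant white-cell miRNA. ssc-miR-142-5p was read 818 times at 63 d, 2289 times at 98 d and 1469 times at 161 d, or 559, 947 and 655 RPM. Its intervals did not overlap between the libraries, and the order of the ages was that of ssc-miR-451. The fold changes were 1.69 (1.56 to 1.83) from 63 to 98 d, 0.692 (0.648 to 0.739) from 98 to 161 d and 1.17 (1.07 to 1.28) from 63 to 161 d.

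The 3p product of the same hairpin went from 108 reads at 63 d to 256 at 98 d and 97 at 161 d, or 73.9, 106 and 43.3 RPM. ssc-miR-142-3p was therefore lowest at 161 d, unlike the 5p product. Its fold change of 0.409 from 98 to 161 d (0.320 to 0.518) was past the 2-fold limit, at 0.5. Under the median of ratios of DESeq2 it was 0.507, just inside the limit. From 63 to 98 d the fold change was 1.43 (1.14 to 1.81) and from 63 to 161 d 0.586 (0.441 to 0.778).

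ssc-miR-150, the miRNA of resting lymphocytes, was the exception among the 6. It had 679 reads at 63 d, 1053 in the 98 d library and 644 at 161 d, or 464, 435 and 287 RPM. The intervals of 63 d (430 to 501 RPM) and 98 d (410 to 463 RPM) overlapped, and the 161 d library was lower than both. The fold change was 0.938 (0.851 to 1.03) from 63 to 98 d, 0.659 (0.597 to 0.728) from 98 to 161 d and 0.618 (0.554 to 0.690) from 63 to 161 d. Its rank among the porcine names went from 76 to 85 and 94. The value at 98 d depended on the denominator, since relative to all clean reads of the library the fold change from 63 to 98 d was 1.38. With miR-150 reads under names of other species added, it was 0.997, from 499 to 497 RPM.

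ssc-miR-155-5p, linked to activated lymphocytes and macrophages, had 131 reads at 63 d, 325 in the 98 d library and 231 at 161 d, or 89.6, 134 and 103 RPM. The 98 d library was highest, and the intervals of 63 d (74.9 to 106 RPM) and 161 d (90.1 to 117 RPM) overlapped. The fold changes were 1.5 (1.22 to 1.85), 0.766 (0.645 to 0.910) and, from 63 to 161 d, 1.15 (0.924 to 1.44).

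bta-miR-223, the myeloid miRNA, had 131 reads at 63 d, 342 in the 98 d library and 289 at 161 d, or 89.6, 141 and 129 RPM. The 63 d library was lowest, and the intervals of 98 d (127 to 157 RPM) and 161 d (114 to 144.6 RPM) overlapped. The fold change was 1.58 (1.29 to 1.95) from 63 to 98 d, 0.911 (0.776 to 1.07) from 98 to 161 d and 1.44 (1.17 to 1.78) from 63 to 161 d. Only 68, 161 and 180 of its reads mapped without error, a share of 51.9%, 47.1% and 62.3%. The other product of its hairpin, hsa-miR-223-5p, had 1, 12 and 9 reads.

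The order of the read levels was ssc-miR-451, ssc-miR-142-5p and ssc-miR-150 in every library, with no overlap between these intervals. Below them, ssc-miR-155-5p overlapped with ssc-miR-142-3p at 63 d and with ssc-miR-144 at 98 d. The intervals of ssc-miR-142-3p and ssc-miR-144 overlapped at both of these ages. At 161 d the lower 3 were separate, with ssc-miR-155-5p at 103 RPM, ssc-miR-144 at 68.7 RPM and ssc-miR-142-3p at 43.3 RPM. The reads were not corrected for how readily each miRNA enters a library, so that this order is one of reads and not of molecules.

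From 63 to 98 d, 1 of the 6, ssc-miR-144, was more than 2-fold higher, beside 12.3% of the 235 porcine names tested, and none was more than 2-fold lower, beside 3.4%. This count depended on the denominator: it was 5 of the 6, all but ssc-miR-150, relative to the clean reads, and 0 under TMM and under the median of ratios of DESeq2. The interval of the fold change lay above 1 in 5 of the 6, beside 48.5% of the names. The median fold change of the 6 was 1.59 (0.67 on the log2 scale), and that of all names was 1.21 (0.28 on the log2 scale). Under the median of ratios of DESeq2, which puts the median of all names at 0.00, the median of the 6 was 0.39 on the log2 scale. At a limit of 1.5-fold, 4 of the 6 were higher, beside 32.8%, and none was lower, beside 13.2%. Thus part of the higher level at 98 d was shared with the other porcine miRNAs under the main scaling.

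From 98 to 161 d, 1 of the 6, ssc-miR-142-3p, was more than 2-fold lower, beside 10.9% of 239 names, and none was more than 2-fold higher, beside 2.51%. Relative to the clean reads 2 of the 6 passed the limit, and under the median of ratios of DESeq2 0 did. The interval lay below 1 in all 6, beside 55.6% of the names. The median fold change was 0.676 for the 6 and 0.809 for all names. In either direction, 13.4% of the names passed the 2-fold limit. At 1.5-fold, 3 of the 6 were lower, beside 27.6%, and none was higher, beside 5.86%. From 63 to 161 d none of the 6 passed the 2-fold limit in either direction, beside 17.7% of 232 names (6.9% higher and 10.8% lower), and the median fold change was 1.16 for the 6 and 0.983 for all names. Here the interval lay above 1 in ssc-miR-451 and ssc-miR-142-5p (2 of 6, beside 33.6%) and below 1 in ssc-miR-150 and ssc-miR-142-3p (2 of 6, beside 37.1%). At 1.5-fold, the latter pair was lower, beside 26.3%, and none was higher, beside 18.5%.

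**Figure D2:**
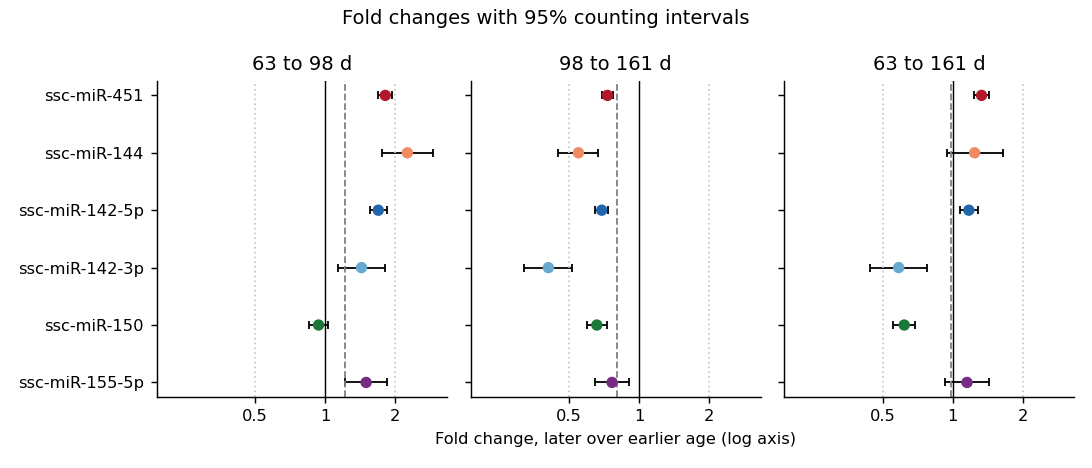
Fold changes of the 6 blood-cell miRNAs in the 3 pairs of ages, later over earlier on a log axis, with 95% Clopper-Pearson intervals. The solid line marks no change, the dotted lines 0.5 and 2, and the dashed line the median of all porcine names tested, 1.21, 0.809 and 0.983. ssc-miR-144 lies past 2 from 63 to 98 d and ssc-miR-142-3p below 0.5 from 98 to 161 d.

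Ratios of 2 miRNAs within a library do not depend on the scaling of the libraries. The red-cell miRNAs made up 40.5% of the reads of the 6 at 63 d (38.7 to 42.3), 47.9% at 98 d (46.8 to 49) and, in the oldest pigs, 49.6% (48.1 to 51.0). The share was lowest at 63 d, and the intervals of 98 and 161 d overlapped. Counting only reads without mapping error, it was 41.9%, 50.2% and 51.3%. Counting only copies of the representative reads, it was 34.8%, 45.4% and 43.7%, so that the order of 98 and 161 d depended on the way of counting. Both products of miR-142, which is made in nearly all blood cell lineages, were counted as white-cell reads, so the groups are of names and not of cells. The ratio of red-cell to white-cell reads, 0.681, 0.919 and 0.982, differed by a factor of 1.35 (1.24 to 1.47) from 63 to 98 d and of 1.07 (0.994 to 1.15) from 98 to 161 d.

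Much of this difference lay in ssc-miR-150. With ssc-miR-150 left out, the red-cell share was 52.8%, 55.7% and 57.2%. Reads of ssc-miR-451 per read of ssc-miR-150 were 1.62, 3.14 and 3.48, a factor of 1.93 (1.71 to 2.18) from 63 to 98 d. The lymphocyte miRNA was also lower beside the main white-cell miRNA from 98 d on, since reads of ssc-miR-142-5p per read of ssc-miR-150 were 1.20, 2.17 and 2.28, a factor of 1.80 (1.59 to 2.05) from 63 to 98 d. By contrast, ssc-miR-451 and ssc-miR-142-5p kept a close ratio of 1.35, 1.44 and 1.53, with a factor of 1.07 (0.963 to 1.19) from 63 to 98 d and 1.13 (1.01 to 1.27) from 63 to 161 d. The ratio of ssc-miR-142-5p to ssc-miR-155-5p was 6.24, 7.04 and 6.36, and each of its intervals of change held 1.

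**Figure D3:**
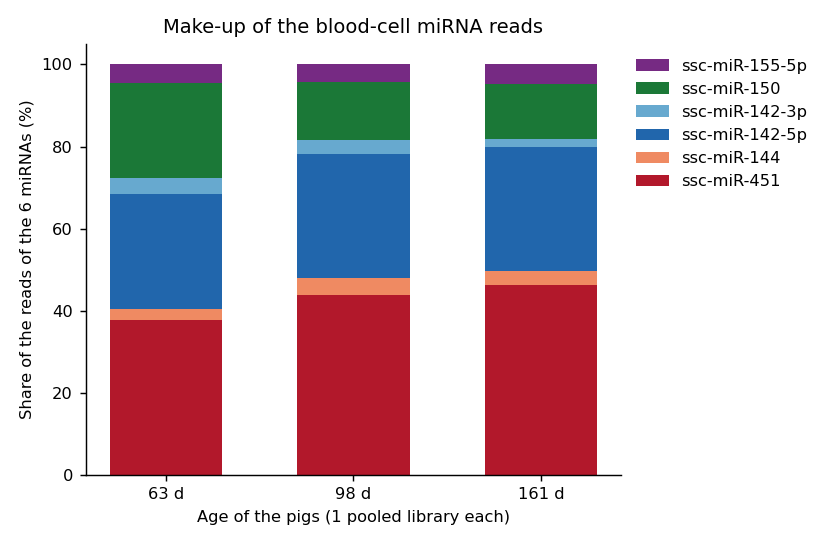
Make-up of the reads of the 6 blood-cell miRNAs in each library, in percent of their summed reads (2919, 7529 and 4839 reads). The 2 red-cell miRNAs at the bottom of the bars take 40.5%, 47.9% and 49.6%, and the green band of ssc-miR-150 is widest at 63 d.

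The products of 1 locus or hairpin were also compared within each library. Reads of ssc-miR-451 per read of ssc-miR-144 were 13.6, 10.9 and 14.6, with a factor of 1.33 (1.08 to 1.64) from 98 to 161 d and an interval holding 1 in the other pairs. On the miR-144 hairpin, ssc-miR-144 is the 3p product, and the 5p product was listed under its human name, hsa-miR-144-5p, with 72, 208 and 147 reads. This 5p read is shown because it stands for an arm without a porcine name.
hsa-miR-144-5p: gGATATCAtcatatactgtaagt
ssc-miR-144 took 52.9%, 59.2% and 51.2% of the reads of both arms, and the ratio of the arms differed by a factor of 1.29 (0.882 to 1.89) from 63 to 98 d, 0.722 (0.536 to 0.971) from 98 to 161 d and 0.931 (0.619 to 1.40) from 63 to 161 d. Only the interval from 98 to 161 d left out 1.

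On the miR-142 hairpin the 3p product took 11.7% of the reads of both arms at 63 d (9.67 to 13.9), 10.1% at 98 d (8.92 to 11.3) and, in the oldest pigs, 6.19% (5.05 to 7.50). The interval of 161 d lay below the others. The ratio of the arms differed by a factor of 0.590 (0.458 to 0.756) from 98 to 161 d, and of 0.847 (0.664 to 1.09) from 63 to 98 d. Counting only reads without mapping error, the share was 9.06%, 8.64% and 4.86%, and counting only copies of the representative reads it was 9.06%, 5.94% and 3.84%. The 161 d library was thus lowest in each way of counting. Behind its values were only 97 reads of the 3p product, 64 of them without mapping error, and 22 copies of the representative read. The shares from these smaller counts carry no interval.

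miR-150 was also found with another 3′ end. The form listed under the cattle name bta-miR-150 has 1 more base than ssc-miR-150. It is shown because its last base is not that of the porcine precursor ssc-mir-150-2, the only precursor it was compared with.
bta-miR-150: tCTCCCAAcccttgtaccagtgt
Counted from the 5′ end of the read, it differs from this precursor by the substitution C23T and equals it in every other base. Its seed is that of ssc-miR-150.

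Copies of this T-ended read numbered 44 at 63 d, 141 at 98 d and 74 at 161 d, beside 380, 536 and 303 copies of the ssc-miR-150 read. The T-ended form was thus 10.4% of both at 63 d (7.64 to 13.7), 20.8% at 98 d (17.8 to 24.1) and, in the oldest pigs, 19.6% (15.7 to 24). The 63 d library lay below the others, and the ratio differed by a factor of 2.27 (1.56 to 3.35) from 63 to 98 d. The share of ssc-miR-150 reads that mapped without error was also different, 81.9%, 72.6% and 74.2%. The 63 d file listed the T-ended read in another mapping group than the 98 and 161 d files did, and its part in the difference was not tested.

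**Figure D4:**
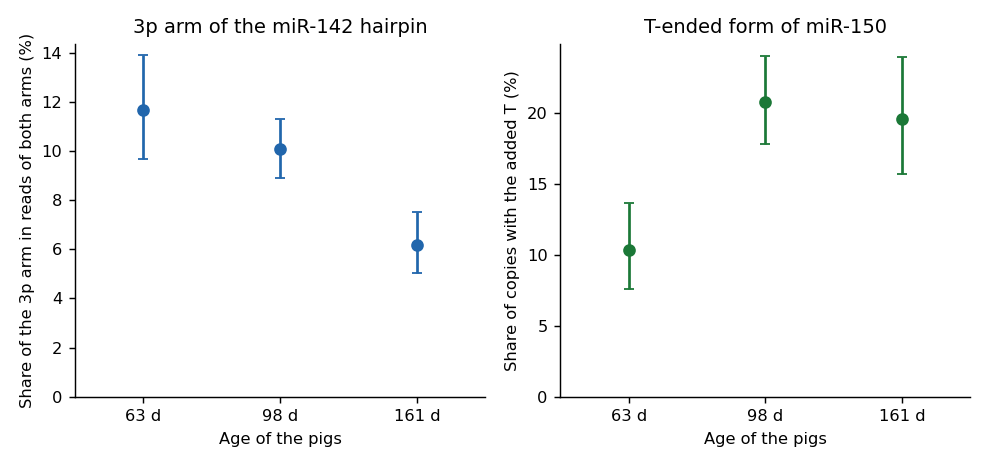
Left, share of the 3p product in the reads of both arms of the miR-142 hairpin, and right, share of the T-ended read in the copies of both miR-150 reads, in percent with 95% Clopper-Pearson intervals, by age. The 3p share is lowest at 161 d (6.19%), and the T-ended share is lowest at 63 d (10.4%).

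The representative read made up only a part of the reads of each miRNA. For ssc-miR-451 it was 30.9%, 32.8% and 29.5%, and for ssc-miR-142-5p 33.1%, 36.0% and 37.5%. For ssc-miR-150 it was 56.0%, 50.9% and 47.0%, with a factor of 0.699 (0.560 to 0.873) in the ratio from 63 to 161 d. The remaining reads are not listed one by one in the files, and some of them carried mapping errors, with 134, 354 and 304 such reads of ssc-miR-451 and 123, 289 and 166 of ssc-miR-150 at 63, 98 and 161 d.

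Other miRNAs that blood cells carry, but that other tissues make as well, did not move as 1 group. Of 10 such red-cell names, 8 were listed, and 4 of these were highest at 98 d. Their summed level of 65953, 58881 and 57311 RPM was mostly ssc-miR-486, which skeletal muscle also makes and which had 52.1, 28.3 and 40.9 reads per read of ssc-miR-451. From 63 to 98 d the fold changes ran from 0.502 in ssc-miR-92a to 1.94 in ssc-miR-16. Those of ssc-miR-15b (0.682), ssc-miR-363 (0.741) and ssc-miR-486 (0.985) were also below 1. Those of ssc-miR-182 (1.34), ssc-miR-183 (1.93) and ssc-miR-185 (1.06) were above 1. The intervals of ssc-miR-183 (0.928 to 4.41, with 10 reads at 63 d) and ssc-miR-185 (0.823 to 1.37) held 1. Those of the other listed names did not. The 3 white-cell names shared with other tissues summed to 654, 1150 and 628 RPM, and 2 of them were highest at 98 d.

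Markers of other cell types differed between the libraries too. The liver miRNA ssc-miR-122 had 11, 297 and 12 reads (7.52, 123 and 5.35 RPM), and was thus 16.3-fold higher at 98 than at 63 d (8.99 to 33.1). The endothelial ssc-miR-126-3p and ssc-miR-126-5p summed to 5843, 9769 and 6759 RPM, and both were highest at 98 d. Of 6 skeletal muscle miRNAs all 6 were listed, with sums of 450616, 400457 and 465506 RPM, and 5 of them were highest at 98 d. The exception, ssc-miR-133a-3p, had a fold change of 0.834 from 63 to 98 d. The smooth muscle miRNAs ssc-miR-143-3p and ssc-miR-145-5p summed to 9396, 11823 and 27194 RPM, highest at 161 d. The part of these in the higher blood-cell levels at 98 d was not tested.

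The porcine names nearest to ssc-miR-451 over the 3 libraries, by the distance between their log2 fold changes, were ssc-miR-15a (distance 0.033), ssc-miR-22-5p (0.034), ssc-miR-126-5p (0.091), ssc-miR-30b-5p (0.12) and ssc-miR-16 (0.12). ssc-miR-142-5p followed as number 6 (0.13), while ssc-miR-144 was number 52 and ssc-miR-150 number 104. Nearest to ssc-miR-142-5p were ssc-miR-152 (0.049), ssc-miR-22-5p (0.099), ssc-miR-451 (0.13), ssc-miR-15a (0.14) and ssc-miR-126-5p (0.15). By point values, the red-cell and the main white-cell miRNA were closer to each other than either was to the second product of its locus. Those products, ssc-miR-144 and ssc-miR-142-3p, lay at 0.52 and 0.80. The distances have no counting interval, and ssc-miR-144 had 81 reads at 63 d and ssc-miR-142-3p 97 at 161 d. ssc-miR-451 over ssc-miR-144 differed by a factor of 0.804 (0.615 to 1.04) from 63 to 98 d and 1.33 (1.08 to 1.64) from 98 to 161 d. For ssc-miR-142-3p over ssc-miR-142-5p the factors were 0.847 (0.664 to 1.09) and 0.590 (0.458 to 0.756).

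**Figure D5:**
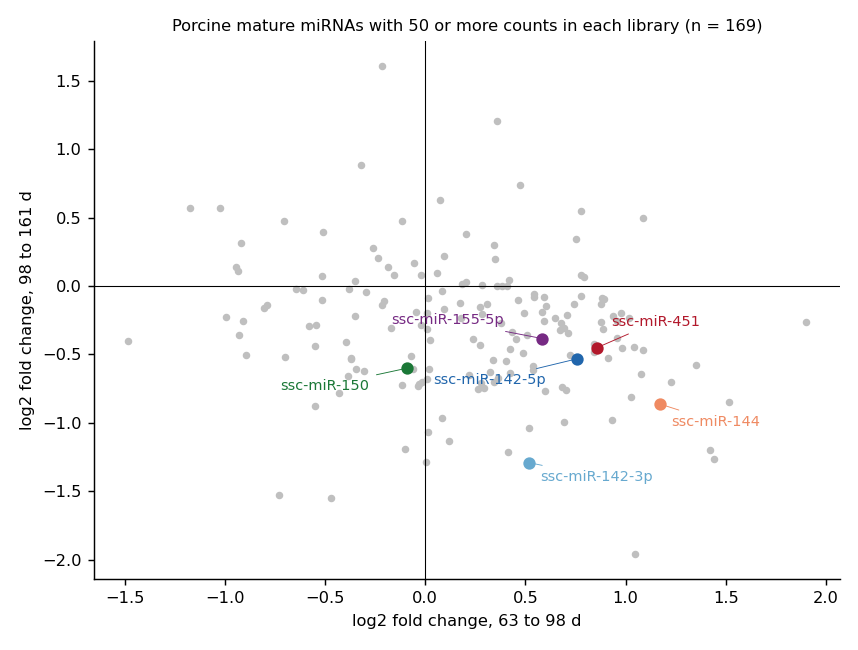
Each point is 1 of the 169 porcine names with at least 50 counts in each library, by its log2 fold change from 63 to 98 d (x axis) and from 98 to 161 d (y axis), with the 6 blood-cell miRNAs coloured. In the lower right, where names are highest at 98 d, lie 5 of the 6, and ssc-miR-150 lies left of the vertical line.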

How the data were processed

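The members and the lists were chosen with earlier results of these data known. RNA of 6 pigs was pooled for each of 3 ages, giving 1 library per age. The authors made the files with ACGT101-miR 4.2, per the submitters' processing notes, and annotated them with miRBase 20.0. The deposited expected counts sum every isoform of a hairpin arm, divided by the authors' pipeline where a read maps to several hairpins, without normalization. All levels and fold changes reported use these summed counts. Copies of the representative read, which are whole numbers, were used only where copies are named.

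Names were shortened to the part before any suffix, and reads of a name were summed over its hairpins without rounding. At 63 d, 139 names were blank and were filled from named entries with the identical sequence in the same library. Of the 139, 33 had no such entry (0.171% of the reads) and were left out of the totals. RPM uses the named reads, and 3 counts correspond to 2.05, 1.24 and 1.34 RPM at 63, 98 and 161 d. Fold changes were called past 2 or 0.5 with at least 20 counts over the pair. No p-value was computed. Named are the 6 members, the other arms of their hairpins, the 5 names nearest to ssc-miR-451 and to ssc-miR-142-5p, and marker lists. Reads under names of other species were kept apart.

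Alternatives were other denominators, TMM of edgeR 4.0.16, the median of ratios of DESeq2 1.42.0, other hairpin and read rules, a pseudocount, other limits and other names. Python 3.11.15, scipy 1.17.1 and R 4.3.3 were used.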

Additional observations from a re-analysis of the deposited data

Results flagged for a closer look

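These reads of the same miRNA numbers stood under names outside the rule, or on the arm opposite to a member, above the floor of 3 counts, and have no control samples. bta-miR-150, the T-ended form, had 50, 149 and 85 reads at 63, 98 and 161 d. bta-miR-223 had 131, 342 and 289 reads. hsa-miR-144-5p had 72, 208 and 147 reads, and a further 5p name of that number, mdo-miR-144-5p, had 4, 9 and 16 reads. hsa-miR-223-5p had 12 reads at 98 d and 9 at 161 d, and oan-miR-223-3p had 4 reads at 161 d. The arm opposite to ssc-miR-451 had 5 reads at 98 d under the porcine hairpin, beside 3304 of ssc-miR-451, and 5 reads at 161 d under the macaque hairpin.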

How the results depend on the processing

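Of the 6 miRNAs, 5 kept the direction of each fold change under all 10 alternatives run for single miRNAs. The exception, ssc-miR-150 from 63 to 98 d, was 0.938 as reported and 1.38 relative to the clean reads. With names of other species added it was 0.997. Relative to the clean reads, 5, 2 and 0 of the 6 passed the 2-fold limit from 63 to 98 d, 98 to 161 d and 63 to 161 d, the median log2 fold changes were 1.23, -0.83 and 0.51, ssc-miR-451 had fold changes of 2.67, 0.612 and 1.63, and the median of all names was 0.84, -0.57 and 0.27. Under TMM, 0 and 1 passed in the first 2 pairs, with medians of 0.46 and -0.28 and ssc-miR-451 at 1.57 and 0.890. Under the median of ratios of DESeq2, 0 and 0 passed, with medians of 0.39 and -0.25 and ssc-miR-451 at 1.49 and 0.909, while the median of all names came to 0.00 in these pairs, against 0.28 and -0.31 as reported. Without ssc-miR-133a-3p in the totals, ssc-miR-451 was 1.61 and 0.834 and the median from 98 to 161 d was -0.38. With copies of the representative read only, ssc-miR-451 was 0.687 from 98 to 161 d. With a limit of 1.5-fold, 4, 3 and 2 of the 6 passed. Levels were 0.439 times those reported with the clean reads as denominator, 1.76 times without ssc-miR-133a-3p, 1.39 times with the hairpin of most reads and 0.654 times with copies only, in the median of all levels. Counting bta-miR-223 among the members, chosen after seeing the data, gave medians of 0.66, -0.53 and 0.23 and left the counts at 1, 1 and 0. No paired analysis was possible because each age had 1 library. With 1 library per age, none could be left out, and differences between pigs of the same age cannot be told apart from differences between ages. ssc-miR-144 and ssc-miR-142-3p had 81 and 97 reads in their lowest library, which limits the precision of their ratios.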
